A study of Homo sapiens with 9 samples.

Results

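The comparison set BxPC3 cells that received a small interfering RNA (siRNA) to STAT3 beside BxPC3 cells given vehicle. BxPC3 is an established human pancreatic ductal adenocarcinoma line, grown in both groups in RPMI medium with 10% fetal bovine serum. It used 6 of the 9 RNA-seq libraries of the study, 3 vehicle and 3 STAT3 siRNA libraries, and the other 3 came from cells treated with the compound WB436B and were not compared. The labels call the libraries of a group biological replicates without saying whether they were separate cultures, so p-values rest on the spread among these libraries, which may be technical. The siRNA sequence, the time after transfection and any non-targeting siRNA were not given in the sources used here. Effects of transfection itself and of STAT3 loss therefore cannot be told apart.

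Members of the comparison were the genes with at least 1 FPKM (fragments mapped to a gene, scaled by transcript length and by library depth) in at least 3 of the 6 libraries. That filter kept 12590 of the 60564 genes in the table, of which 283 passed it through the siRNA libraries alone and 284 through the vehicle libraries alone. A gene that passed through the group where it is high had to differ, so its values are a description. Of the genes with values below, IGFBP5, CGA, VGF, TGFB3, PRSS2, COL3A1, DMBT1, ROBO1, SLC16A14, CYP1A1 and PTPRZ1 passed through the siRNA libraries alone. IL22RA1, LEPR, STAT5A, CSF3, INHBA, WNT4, KLK13, MMP7, SERPINB4, C1S, CP, PIGR, MUC2, TFF2, NGFR, EDAR, SLC2A6, CLCA2, CLCA4, DUOX2, IDO1, FUT2, GIMAP4, GIMAP6 and GIMAP8 passed through the vehicle libraries alone. Values were analysed as log2(FPKM + 1), and every log2 fold change below is the siRNA mean minus the vehicle mean on that scale, which understates the change of weakly expressed genes. A gene was called, and is said to have risen or fallen, when its adjusted p from limma, with Benjamini-Hochberg adjustment over all 12590 genes, was below 0.05. The values after ± are standard deviations over 3 libraries.

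STAT3 is a latent transcription factor of the cytoplasm. Cytokines of the interleukin-6 family bind receptors that share the chain gp130, JAK kinases attached to the receptors phosphorylate STAT3, and the STAT3 dimer enters the nucleus and binds short palindromic DNA sites. Among its textbook targets is SOCS3, which blocks the receptor complex and so closes a feedback loop. In epithelia STAT3 is known for acute-phase, antimicrobial and wound-response genes, and in pancreatic cancer it is studied as a driver of inflammation and invasion.

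The 6 libraries fell into their labelled groups. Pearson correlations of log2(FPKM + 1) across tested genes lay between 0.981 and 0.986 within groups and between 0.936 and 0.941 between groups, and the first principal component, with 68.7% of the variance, separated vehicle from siRNA. Depth was estimated at 14900000 to 47200000 fragments for vehicle and 17000000 to 19100000 for siRNA, with the highest estimate for vehicle 1. These depth estimates are uncertain. Of 14 markers of ductal epithelium 11 were tested, with a summed level over all 14 of 1633 to 1693 FPKM in vehicle and 1511 to 1564 FPKM in siRNA libraries, of which KRT19 made up 42.7% under vehicle. The other 3 stayed below 1 FPKM in all 6 libraries, 1 of them at 0.

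STAT3 itself, the targeted gene, stood at 16.4, 15.8 and 15.1 FPKM under vehicle and at 2.98, 2.58 and 3.02 FPKM after the siRNA. The groups did not overlap, and the siRNA mean was 18.1% of the vehicle mean (log2 fold change -2.12, SE 0.0655, adjusted p = 1.4e-05). In such bulk libraries, fewer cells with the transcript and less of it per cell cannot be told apart. An exact two-sided permutation test of 3 against 3 libraries gave p = 0.1, the smallest that this design allows. SOCS3, the feedback inhibitor, stood at 5.99, 5.82 and 4.88 FPKM under vehicle and at 0.798, 1.10 and 1.01 FPKM after the siRNA, which gave a log2 fold change of -1.73 with an SE of 0.0965 (limma adjusted p = 5.8e-05).

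After STAT3 siRNA 3642 of the 12590 tested genes had risen and 2745 had fallen, so that 50.7% of all tested genes were called. Most of these differences were small: 92.5% of the calls were under 2-fold, and the median size of a called log2 fold change was 0.44. At 2-fold or more the balance turned, with 128 genes higher and 352 lower, and at 4-fold or more with 10 higher and 38 lower. A count of calls in a gene list has to be read against those backgrounds, which were 28.9% of all genes called higher, 21.8% called lower, 1.02% at least 2-fold higher and 2.8% at least 2-fold lower. In 60.7% of all genes the 3 libraries of one group lay above the 3 of the other. The median log2 fold change of all tested genes was 0.06.

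**Figure D1:**
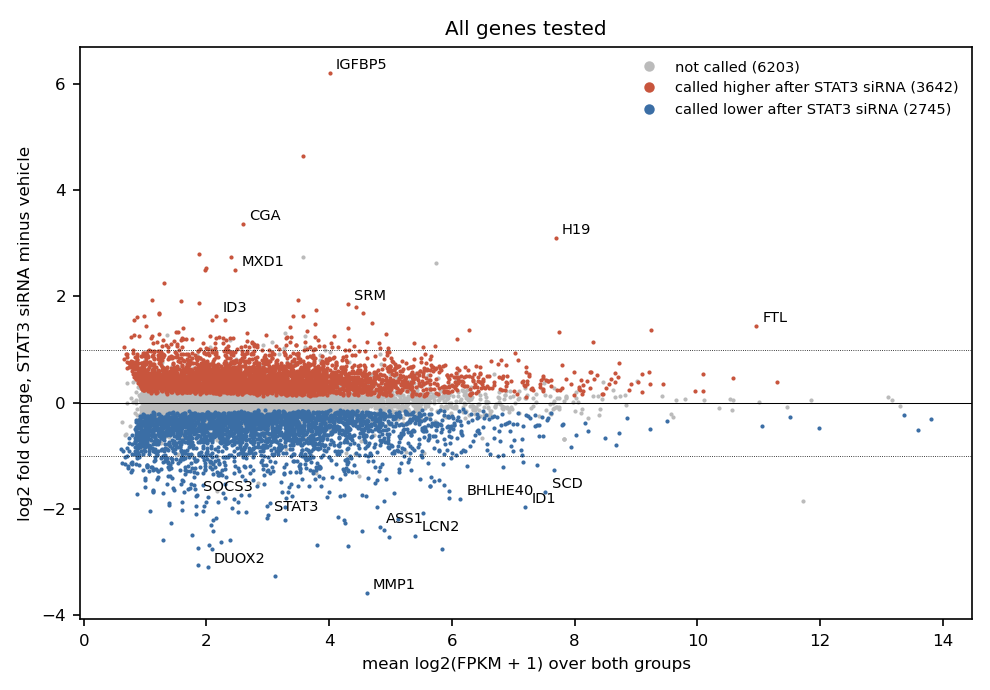
Each point is 1 of the 12590 tested genes, with the mean of log2(FPKM + 1) over both groups on the x axis and the log2 fold change, siRNA minus vehicle, on the y axis. Red points were called higher (3642), blue points lower (2745) and grey points were not called; the dotted lines mark 2-fold, beyond which blue points outnumber red ones (352 against 128).

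In the JAK-STAT3 pathway 35 of 54 listed genes were tested, of which 7 rose and 15 fell (20% and 42.9%, median log2 fold change -0.22). The list holds STAT3 itself, and 3 of its tested members passed the filter in one group only. The libraries of the groups did not overlap in 27 of the 35, and did not overlap in 60.7% of all tested genes. Among the ligands, LIF, a cytokine of the interleukin-6 family, stood at 15.3, 14.2 and 14.7 FPKM under vehicle and at 2.97, 3.68 and 3.15 FPKM after the siRNA, a log2 fold change of -1.89 (adjusted p = 2.1e-05). All 3 siRNA libraries lay far below the lowest vehicle library. CLCF1, a ligand of the same family, fell by 0.29. The other ligand tested, CTF1, was not called (-0.27, adjusted p = 0.076). IL6 and IL11 stayed below 1 FPKM in all 6 libraries and were not tested, with highest values of 0.204 and 0.750 FPKM.

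Receptors of the pathway moved in both directions. OSMR, the receptor chain for oncostatin M, fell from 42.2, 42.8 and 39.0 FPKM to 23.8, 22.7 and 23.6 FPKM (-0.80), and it was the most abundant receptor of the list. LIFR, the receptor chain for LIF, rose from 3.07, 2.93 and 2.42 FPKM to 4.39, 3.65 and 4.14 FPKM (0.41). Both chains had their groups fully apart, in opposite directions. IL20RB, a receptor chain for interleukin-20 family cytokines, rose by 0.39, while IL22RA1, which binds interleukin-22, and the leptin receptor LEPR fell by 0.63 and 0.48. The shared chain gp130, encoded by IL6ST, was not called, with 10.6, 13.6 and 12.5 FPKM under vehicle and 13.2, 13.4 and 14.3 FPKM after the siRNA, and its groups overlapped. The interleukin-6 receptor IL6R was also not called (-0.28, adjusted p = 0.072).

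Among the kinases, JAK2 fell from 6.04, 6.53 and 6.40 FPKM to 4.03, 3.35 and 3.69 FPKM (-0.64, adjusted p = 0.00064), and SRC, a cytoplasmic tyrosine kinase that can phosphorylate STAT3, fell by 0.65. JAK1 was not called, at 16.1 to 16.6 FPKM under vehicle and 15.1 to 17.1 FPKM after the siRNA, nor was TYK2 (-0.13, adjusted p = 0.096). Of the 6 tested STAT genes, STAT3 included, 3 rose and 3 fell. STAT2, a transducer of type I interferon signals, rose by 0.36. STAT5B rose by 0.41 and its close relative STAT5A fell by 0.35, from a mean of only 1.44 FPKM. STAT6, the interleukin-4 transducer and the most abundant STAT under vehicle, fell from 35.3, 37.0 and 32.3 FPKM to 22.2, 24.0 and 21.9 FPKM (-0.60).

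Of the pathway's inhibitors 13 were tested, 5 fell and 2 rose (38.5% and 15.4%, against 21.8% and 28.9% of all genes). Beside SOCS3, SOCS5 fell by 0.29 and SOCS6 by 0.39, and the phosphatases PTPN6 and PTPN1 by 0.42 and 0.22, the last a call that scaling the libraries to equal totals ended. PIAS4, a SUMO ligase that restrains STAT activity, rose by 0.41, and the phosphatase PTPN11 rose by 0.19. Next to SOCS3 none of these inhibitors changed by 2-fold.

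**Figure D2:**
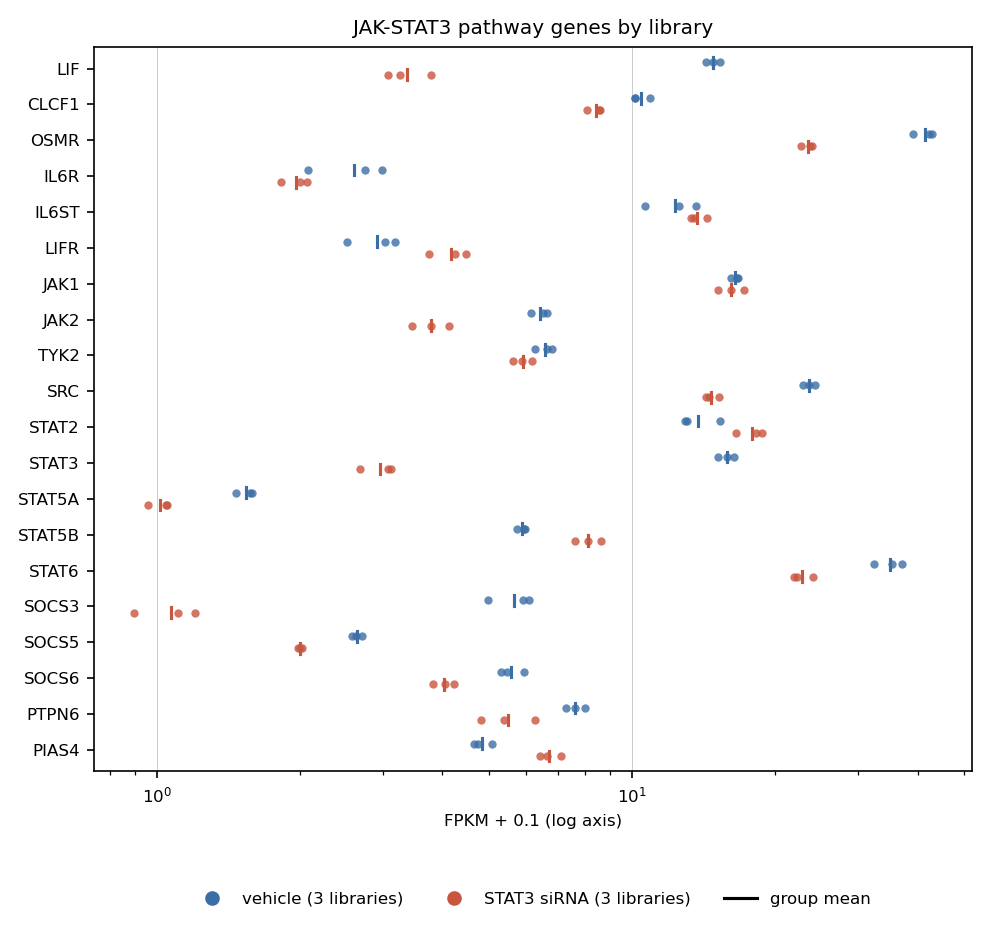
FPKM + 0.1 on a log axis for 20 genes of the JAK-STAT3 pathway, ordered from ligands through receptors, kinases and STATs to inhibitors. Points are single libraries and bars group means; blue is vehicle and red STAT3 siRNA, 3 libraries each. STAT3, SOCS3 and LIF show the widest gaps, JAK1 and IL6ST overlap, and STAT2, STAT5B, LIFR and PIAS4 lie higher after the siRNA.

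Among secreted cytokines and chemokines 25 of 42 listed genes were tested, 15 fell and 3 rose (60.0% and 12%, median -0.73), and 9 fell at least 2-fold. Of the 25, 3 passed the filter in one group only. The chemokine CXCL14 stood at 8.08, 8.78 and 8.29 FPKM under vehicle and at 0.962, 0.751 and 1.01 FPKM after the siRNA, which gave a log2 fold change of -2.30 with an SE of 0.0739 (adjusted p = 1.6e-05). CXCL8, the neutrophil chemoattractant interleukin-8, fell from 16.4, 17.8 and 20.2 FPKM to 3.97, 3.35 and 4.48 FPKM (-1.96), and CXCL1, which acts on the same receptor, fell by 1.28. The mucosal chemokine CXCL17 fell by 1.55. CXCL10, which draws T cells, went the other way and stood at 8.19, 8.90 and 7.52 FPKM under vehicle and at 11.5, 11.8 and 13.0 FPKM after the siRNA (0.51, adjusted p = 0.0022). CCL5 was also called higher (0.28, adjusted p = 0.029), but that call was lost without vehicle 1, 2 or 3 or siRNA 1.

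IL1A, IL1B and IL33 of the interleukin-1 family all fell. IL1A was the most abundant of the 3, at 70.5, 74.2 and 71.6 FPKM under vehicle and 26.4, 25.8 and 25.9 FPKM after the siRNA (-1.44, adjusted p = 8.6e-06). IL33, an alarmin of barrier epithelia, fell from 9.25, 10.1 and 9.50 FPKM to 1.22, 2.15 and 1.80 FPKM (-1.97), and IL1B fell by 1.19. CSF3, the granulocyte colony-stimulating factor, went from 1.67, 1.07 and 1.43 FPKM to 0.0815, 0.0608 and 0.0489 FPKM (-1.16), so that it passed the filter through the vehicle libraries alone. The one cytokine of the list that rose was IL32 (0.38), from a mean of 1.15 to 1.80 FPKM.

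Growth factors and hormones were tested for 47 of 102 listed genes, of which 24 fell and 10 rose (51.1% and 21.3%, median -0.21), and 7 passed the filter in one group only. All 6 tested ligands of the EGF receptor family fell. HBEGF, the heparin-binding member, stood at 53.3, 56.9 and 57.5 FPKM under vehicle and at 15.0, 14.4 and 14.6 FPKM after the siRNA (-1.86, SE 0.0471, adjusted p = 5.8e-06). Amphiregulin (AREG), betacellulin (BTC) and epiregulin (EREG) fell by 1.07, 0.69 and 0.65. FGFBP1, a carrier that releases fibroblast growth factors from the matrix, fell from 73.0, 74.0 and 75.2 FPKM to 12.7, 13.5 and 10.1 FPKM (-2.53, SE 0.0998). The angiogenic factor VEGFA fell by 0.75.

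Genes of activin and TGF-beta signalling changed in both directions. Follistatin (FST), a secreted activin antagonist, fell from 81.5, 83.0 and 92.8 FPKM to 39.5, 39.8 and 35.1 FPKM (-1.15), and the activin subunit INHBA fell by 0.67. FSTL3, a follistatin-like antagonist, rose from 1.14, 2.03 and 2.38 FPKM to 3.94, 4.57 and 4.6 FPKM (0.94, adjusted p = 0.0049). TGFB2 and TGFB3 rose by 0.57 and 0.60, whereas TGFB1, the most abundant of the 3 isoforms, fell by 0.26. Of the WNT ligands WNT4 fell by 1.21 and WNT7B rose by 0.22, and the WNT antagonist DKK1 fell by 0.49. Galectin-1 (LGALS1), a secreted sugar-binding protein, fell from 93.8, 85.3 and 79.7 FPKM to 26.0, 32.8 and 32.8 FPKM (-1.47).

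Hormone and neuropeptide genes held the largest increases of this class. CGA, the alpha subunit of the glycoprotein hormones, stood at 0.888, 0.844 and 0.955 FPKM under vehicle and at 18.8, 18.4 and 18.0 FPKM after the siRNA (3.36). VGF, a neuroendocrine peptide precursor, went from 0.148, 0.0719 and 0.15 FPKM to 2.48, 2.72 and 2.31 FPKM (1.64). Both genes passed the filter through the siRNA libraries alone, so their values are a description. Neuromedin U (NMU), another peptide precursor, fell by 0.70. Of 9 markers of endocrine cells 4 (INS, GCG, SST, NKX2-2) were at 0 in all 6 libraries, and all 9 summed to 1.12 to 1.47 FPKM under vehicle and 2.22 to 2.68 FPKM after the siRNA, a level like that of VGF. Nearly all of that sum was ISL1, a LIM homeobox factor, which rose from 1.08, 1.26 and 1.43 FPKM to 2.52, 2.64 and 2.08 FPKM (0.60). The other 8 summed to 0.0377 to 0.0615 FPKM under vehicle and 0.0481 to 0.142 FPKM after the siRNA, and the part of these cells in the result was not tested.

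**Figure D3:**
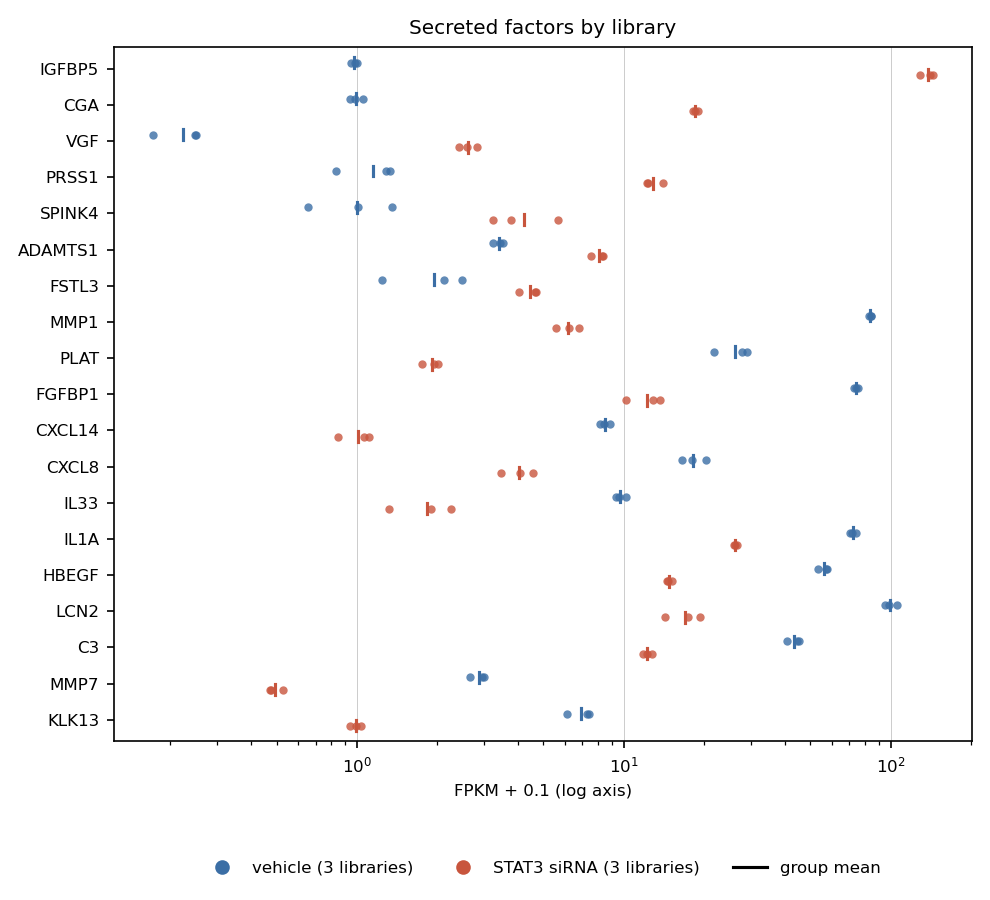
FPKM + 0.1 on a log axis for 19 secreted factors in single libraries (points) with group means (bars); blue is vehicle and red STAT3 siRNA, 3 libraries each. The upper 7 genes, from IGFBP5 to FSTL3, lie higher after the siRNA, and the lower 12, from MMP1 to KLK13, lie lower. Groups that lie apart were a condition for naming these genes.

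The list of secreted proteases and inhibitors also holds lysosomal, membrane-bound and intracellular members, so its counts are not of secreted proteins alone. Of its 105 genes 60 were tested, of which 38 fell and 7 rose (63.3% and 11.7%, median -0.48), with 20 at least 2-fold lower. Only 4 of them passed the filter in one group alone. The collagenase MMP1 led the decreases, at 82.5, 84.3 and 84.2 FPKM under vehicle and 6.12, 5.45 and 6.70 FPKM after the siRNA (-3.58, SE 0.0698, adjusted p = 2.7e-06). Another collagenase, MMP13, fell by 1.03, the matrilysin MMP7 by 1.43 and the epilysin MMP28 by 1.33, the last from 29.5, 28.7 and 29.8 FPKM to 11.2, 11.8 and 10.2 FPKM. ADAMTS1, which cleaves proteoglycans, was the one metalloproteinase that rose, from 3.42, 3.34 and 3.13 FPKM to 8.20, 8.25 and 7.45 FPKM (1.06, adjusted p = 6.7e-05).

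Serine proteases of the list fell in 9 of 15 cases and rose in 2 (60% and 13.3%, against 21.8% and 28.9% of all genes). PLAT, the tissue-type plasminogen activator, fell from 27.5, 28.9 and 21.6 FPKM to 1.85, 1.91 and 1.65 FPKM (-3.26). Kallikrein-related proteases of stratified epithelium also fell, KLK13 by 2.05 and KLK11 by 1.56, as did the membrane-bound protease TMPRSS4 (-1.57). The lysosomal cathepsin S (CTSS) fell from 10.4, 11.6 and 11.8 FPKM to 2.87, 3.35 and 3.18 FPKM (-1.57). SERPINB1, an inhibitor of neutrophil proteases, fell by 1.74. SERPINB3 and SERPINB4 fell by 2.76 and 2.67, but they are near-identical copies whose fragments may be exchanged.

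Increases among protease genes were few. PRSS1, which encodes cationic trypsinogen, stood at 0.734, 1.18 and 1.23 FPKM under vehicle and at 12.2, 13.9 and 12.1 FPKM after the siRNA (2.75), with PRSS2, a near-identical copy, at 2.49. SPINK4, a Kazal-type inhibitor of the gut, rose from 0.908, 0.556 and 1.25 FPKM to 3.13, 3.67 and 5.55 FPKM (1.41, adjusted p = 0.0020). Of 10 markers of pancreatic acinar cells 5 (CPB1, PNLIP, PTF1A, RBPJL, CELA3A) were at 0 in all 6 libraries, and the sum over all 10, which include PRSS1, was 7.73 to 8.88 FPKM under vehicle and 15.7 to 18.6 FPKM after the siRNA. Without PRSS1 the other 9 summed to 7.0 to 7.70 FPKM and 3.46 to 4.75 FPKM, nearly all of it CEL, the acinar lipase, which fell by 0.72. SERPINH1, a collagen chaperone of the endoplasmic reticulum, rose by 0.66.

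Matrix and IGF-binding protein genes were mixed, with 15 higher and 20 lower among 47 tested of 86 listed (31.9% and 42.6%, median -0.13). Of all genes 28.9% were higher and 21.8% lower. Of the 47, 9 passed the filter in one group only. IGFBP5, which binds insulin-like growth factors, held the largest increase of all tested genes, from 0.853, 0.885 and 0.897 FPKM to 144, 141 and 128 FPKM (6.2). It entered the tested genes through the siRNA libraries alone, so its values are a description. The other called members of its family moved little, with IGFBP2 higher by 0.35 and IGFBP4 at -0.18, a call that was lost without siRNA 3 and with equal totals. Collagen XVII (COL17A1), which anchors epithelium to its basement membrane, fell from 181, 181 and 157 FPKM to 73.5, 79.4 and 69.8 FPKM (-1.21), and LAMA3, a laminin chain of the same junction, fell by 0.45. NID2, a basement membrane linker, rose by 0.81, although 30.0% of its exon bases overlap another gene model. Thrombospondin-1 (THBS1) rose from 13.8, 13.0 and 12.6 FPKM to 27.6, 27.2 and 26.5 FPKM (0.99), and fibronectin (FN1) rose by 0.64 from a mean of 1.54 FPKM. SPP1, osteopontin, fell from 9.67, 11 and 11.4 FPKM to 1.79, 1.5 and 2.13 FPKM (-2.06), and TGFBI, another adhesive matrix protein, fell by 1.15. COL3A1, a fibrillar collagen of fibroblasts, rose from a mean of 0.171 to 1.22 FPKM (0.92). Of 10 fibroblast markers, which include COL3A1, COL1A2 was at 0 and 8 stayed below 1 FPKM in all 6 libraries. Their sum was 2.17 to 2.38 FPKM under vehicle and 3.62 to 3.90 FPKM after the siRNA, and its part in the matrix values was not tested.

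Mucosal defence and acute-phase genes had the highest share of decreases among the lists in the plot of calls by functional list, with 36 lower and 1 higher among 42 tested of 78 listed (85.7% and 2.38%, median -0.97). At least 2-fold decreases made up 20 of these, and 12 of the 42 passed the filter in one group only. Of the complement genes CFB, a protease of the alternative pathway, stood at 8.28, 8.64 and 8.37 FPKM under vehicle and at 1.14, 1.13 and 0.997 FPKM after the siRNA (-2.17, SE 0.0568, adjusted p = 6.2e-06), with 45.5% of its exon bases shared with another gene model. C3, the central component, fell from 45.1, 44.3 and 40.7 FPKM to 12.1, 12.7 and 11.6 FPKM (-1.75), and the neighbouring proteases of the classical pathway, C1R and C1S, fell by 1.87 and 1.63. LCN2, which sequesters bacterial siderophores, fell from 98.0, 105 and 95.2 FPKM to 14.2, 19.1 and 17.3 FPKM (-2.50). Ceruloplasmin (CP), a copper-carrying ferroxidase, fell by 2.48 and the vitamin B12 carrier TCN1 by 2.62. PIGR, which carries immunoglobulins across epithelium, fell from 8.74, 9.28 and 8.96 FPKM to 0.861, 0.910 and 0.844 FPKM (-2.42). Mucins and trefoil peptides fell in 12 of 13 cases, among them MUC1 (-1.80), MUC2 (-1.65), TFF2 (-1.59) and TFF1 (-1.21). The sole increase was DMBT1, a scavenger glycoprotein of mucosal surfaces, from 0.156, 0.158 and 0.101 FPKM to 4.09, 4.54 and 4.72 FPKM (2.26). Markers of leukocytes summed to 4.71 to 6.65 FPKM under vehicle and 3.17 to 5.39 FPKM after the siRNA, with MS4A1 and CD163 at 0 and CD68 the only one to reach 1 FPKM.

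**Figure D4:**
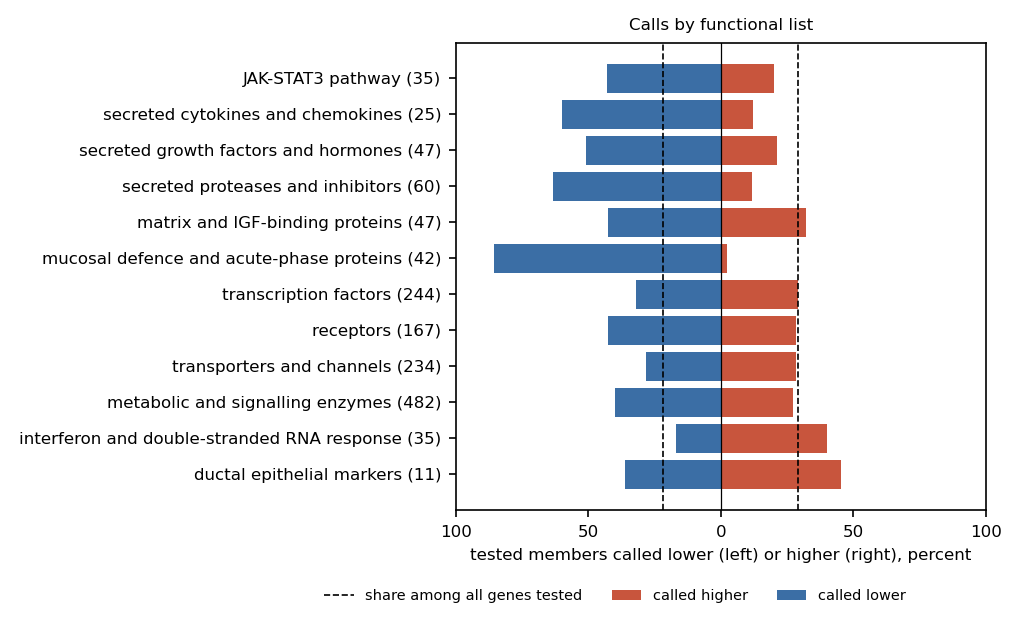
Share of the tested members of each list that were called lower (blue, to the left) or higher (red, to the right), in percent, with the number tested in brackets. Dashed lines mark the shares among all tested genes, 21.8% lower and 28.9% higher; the blue bar of mucosal defence and acute-phase proteins reaches 85.7%, and the transporter and transcription factor bars stay closest to the lines.

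Promoter sequences were searched for the palindrome TTCNNNGAA, the textbook form of a STAT site, which reads the same on both strands. The windows ran from 250 bases before to 50 after each gene start (RefSeq, GRCh38.p14), and 7.66% of all 35116 windows held a match. The stricter form TTCCNGGAA, whose matches are also matches of the first form, was in 1.15% of them. RefSeq windows were found for 82.5% of the tested protein-coding genes but for 73.9% of those at least 2-fold lower and 78.1% of those at least 2-fold higher, so a comparison of shares between the groups is void. No match was recorded for SOCS3, but a gene without a window also gives none, so this decides nothing about its promoter. The following stretches come from 5 genes that fell, described above or below, and from 2 that rose, to show that matches occur on both sides. The matching bases are in capitals, and each stretch is written 5′ to 3′ on the strand of its gene.
CFB, chr6:31945978-31946036, plus strand: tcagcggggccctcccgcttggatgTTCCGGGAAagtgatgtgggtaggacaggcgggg
C1R, chr12:7091946-7092004, minus strand: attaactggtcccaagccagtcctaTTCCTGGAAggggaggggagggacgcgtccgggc
ICAM1, chr19:10271020-10271078, plus strand: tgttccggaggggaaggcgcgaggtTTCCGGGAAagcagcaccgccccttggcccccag
KLF7, chr2:207134176-207134234, minus strand: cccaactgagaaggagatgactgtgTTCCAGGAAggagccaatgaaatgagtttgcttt
EGR1, chr5:138465229-138465284, plus strand: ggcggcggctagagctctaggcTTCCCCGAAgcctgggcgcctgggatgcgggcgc
ID3, chr1:23559649-23559707, minus strand: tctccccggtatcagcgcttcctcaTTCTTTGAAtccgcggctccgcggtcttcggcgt
PRSS2, chr7:142770720-142770778, plus strand: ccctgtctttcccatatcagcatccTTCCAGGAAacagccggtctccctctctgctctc
The matches began 92 bases before the annotated start in CFB, 86 in C1R, 75 in ICAM1, 72 in KLF7, 228 in EGR1, 181 in ID3 and 225 in PRSS2. Those of CFB, C1R, ICAM1, KLF7 and PRSS2 also met the stricter form, as did one in the window of DHRS2, which rose. In all, 8 of 227 protein-coding genes at least 2-fold lower held the stricter form in a window, and 2 of 82 at least 2-fold higher. Among all tested protein-coding genes with a window it was 142 of 8841. As windows were found unequally, no comparison of these counts is drawn. Such a match is a run of letters and does not show that STAT3 binds there.

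Transcription factor genes were higher in 71 and lower in 78 of 244 tested cases of 368 listed (29.1% and 32.0%, median -0.01), against 28.9% and 21.8% of all genes. At 2-fold or more 8 were higher and 9 lower. Factors of the NF-kB and interferon regulatory families fell in 10 of 14 cases and rose in 1 (71.4% and 7.14%, median -0.30). BCL3, a nuclear partner of NF-kB subunits, stood at 15.6, 14.6 and 12.6 FPKM under vehicle and at 5.39, 4.6 and 5.39 FPKM after the siRNA (-1.32), and NFKBIZ, a related coactivator, fell by 0.93. IRF9, the DNA-binding partner of STAT2 in the interferon-activated complex, was the one that rose (0.38), although 48.4% of its exon bases overlap another gene model. In the ETS family 9 of 18 fell and 2 rose (50% and 11.1%). The epithelial ETS factor SPDEF fell from 7.19, 7.18 and 8.65 FPKM to 1.68, 1.91 and 1.42 FPKM (-1.70), and ELF3, ETS2 and EHF fell by 0.97, 0.93 and 0.72, while ETV5 rose by 1.04 from a mean of 0.799 FPKM.

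ID1 and ID3, inhibitory helix-loop-helix factors, changed in opposite directions. ID1, which sequesters basic helix-loop-helix partners, fell from 289, 290 and 287 FPKM to 73.1, 76.5 and 69.3 FPKM (-1.97, SE 0.0474), whereas ID3, with the same biochemical role, rose from 2.11, 1.41 and 1.16 FPKM to 7.41, 6.54 and 6.62 FPKM (1.63, SE 0.139). Even after the siRNA the ID1 level stayed above that of ID3. MXD1, an antagonist of MYC, stood at 1.53, 1.47 and 1.04 FPKM under vehicle and at 12.6, 11.8 and 12 FPKM after the siRNA (2.49, adjusted p = 2.0e-05). BHLHE40, a repressor that feeds back on the circadian clock, fell from 133, 132 and 127 FPKM to 36.5, 37.8 and 35.3 FPKM (-1.81), while the clock repressors NR1D1 and NR1D2 rose by 1.27 and 1.14. The hypoxia factor HIF1A fell by 0.91 and SREBF1, which drives lipid synthesis genes, by 1.08.

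Immediate-early and stress factors were also divided. EGR1, induced by growth factor signals, fell from 54.6, 52.7 and 53 FPKM to 12.1, 13.4 and 13.2 FPKM (-1.97), and the AP-1 components JUNB and FOS fell by 1.05 and 0.94. CEBPB, a factor of acute-phase gene expression, fell by 1.00. DDIT3 and ATF5, factors of the integrated stress response, rose instead. DDIT3, known as CHOP, stood at 10.7, 9.84 and 13.2 FPKM under vehicle and at 27.4, 29.3 and 38.0 FPKM after the siRNA (1.41), with 39.6% of its exon bases shared with another gene model, and ATF5 rose by 1.06. Among E2F and related factors of the p53, SMAD, TEAD and RUNX class 16 of 39 rose and 5 fell (41.0% and 12.8%, median 0.21). Of all genes 28.9% rose and 21.8% fell. E2F1, which drives S-phase genes, stood at 7.25, 7.28 and 6.98 FPKM under vehicle and at 13.8, 15.4 and 14.6 FPKM after the siRNA (0.93), while SMAD3, the TGF-beta transducer, fell by 0.81. GATA3 rose from a mean of 1.10 to 3.80 FPKM (1.20), SOX2 rose by 0.80, and KLF7 fell by 1.22 and FOXC1 by 0.94.

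Receptor genes were tested for 167 of 290 listed, of which 47 rose and 71 fell (28.1% and 42.5%, median -0.15). Of all genes 28.9% rose and 21.8% fell. Of the 167 receptor genes 15 passed the filter in one group only. Receptors for cytokines, interleukins and interferons fell in 11 of 17 cases and rose in 2 (64.7% and 11.8%). IFNGR2, a chain of the interferon-gamma receptor, fell from 19.4, 24.2 and 22.4 FPKM to 8.65, 7.23 and 7.63 FPKM (-1.38), and IL15RA, which presents interleukin-15, fell by 1.03. IL18R1, the interleukin-18 receptor, rose from 3.39, 3.58 and 4.14 FPKM to 9.15, 8.35 and 9.67 FPKM (1.10, adjusted p = 0.00016). Of TNF and Toll-like receptors 11 of 18 fell (61.1%) and 0 rose in this limma fit, and at an unadjusted p under 0.05 just 1 was higher. NGFR, the low-affinity neurotrophin receptor, fell from 6.93, 6.01 and 6.04 FPKM to 0.700, 0.830 and 0.618 FPKM (-2.09), with 27.1% of its exon bases shared with another gene model, and TNFRSF14 and EDAR fell by 1.33 and 0.96.

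Receptors for TGF-beta, WNT and Notch signals rose in 14 and fell in 1 of 25 tested cases (56.0% and 4%, median 0.26), of which 5 passed the filter in one group only. Of all genes 28.9% rose and 21.8% fell. LGR4, which binds R-spondins and strengthens WNT signalling, stood at 6.30, 6.32 and 4.78 FPKM under vehicle and at 19.8, 20.1 and 19.8 FPKM after the siRNA (1.63, SE 0.0988, adjusted p = 7.6e-05). ZNRF3, the ubiquitin ligase that removes WNT receptors and that R-spondins inhibit, rose by 0.60, and the WNT co-receptor LRP6 rose by 0.56. TGFBR2, the ligand-binding TGF-beta receptor, rose from 10.1, 10.9 and 9.23 FPKM to 15.8, 16.2 and 15.6 FPKM (0.61). The relative LGR6 was the one that fell (-0.40).

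Receptor tyrosine kinases rose in 9 of 21 cases and fell in 7 (42.9% and 33.3%, against 28.9% and 21.8% of all genes). FGFR3, a fibroblast growth factor receptor, fell from 27.8, 32.0 and 24.3 FPKM to 8.66, 7.83 and 6.14 FPKM (-1.77). Within the ephrin receptors EPHB6 and EPHB2 rose by 0.86 and 0.78, while EPHA2, the most abundant named here, fell from 91.2, 86.5 and 76.5 FPKM to 50.8, 55.9 and 52.3 FPKM (-0.66). Of the adhesion receptors, ICAM1, the ligand of leukocyte integrins, stood at 23.7, 25.9 and 22.8 FPKM under vehicle and at 7.33, 7.61 and 7.46 FPKM after the siRNA (-1.57), and the integrin chains ITGA2 and ITGB6 fell by 1.42 and 1.29. ROBO1, a guidance receptor, rose from 0.519, 0.484 and 0.460 FPKM to 2.64, 2.61 and 2.74 FPKM (1.30). G protein-coupled receptors fell in 19 of 35 cases and rose in 7 (54.3% and 20%). Among them were the nucleotide receptor P2RY2 at -1.02 and the adhesion type receptor ADGRA3 at 0.95. HCAR3 fell by 1.36, but 57.3% of its exon bases overlap another gene model, and it has a near-identical neighbour.

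Transporters and channels had equal counts in both directions, 66 higher and 66 lower among 234 tested of 582 listed (28.2% each, median 0.00), against 28.9% and 21.8% of all genes. At 2-fold or more 4 were higher and 13 lower, and 25 passed the filter in one group only. Solute carriers rose in 51 of 151 cases and fell in 31 (33.8% and 20.5%), both near the shares of all genes. SLC2A6, a lysosomal member of the glucose transporter family, fell from 4.70, 4.59 and 5.00 FPKM to 0.959, 0.964 and 0.792 FPKM (-1.60), and the organic cation transporter SLC22A3 fell by 1.09. SLC16A14, an orphan monocarboxylate transporter, rose from 0.242, 0.242 and 0.145 FPKM to 1.78, 1.89 and 2.02 FPKM (1.26), and SLC25A4, a mitochondrial ADP/ATP carrier, rose by 0.95. Among ABC transporters ABCC4, which exports cyclic nucleotides and prostaglandins, rose from 0.984, 1.08 and 0.925 FPKM to 3.96, 3.54 and 3.46 FPKM (1.22), while its relative ABCC3 fell by 0.95.

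Of 7 potassium channels 4 fell and 0 rose in the limma fit, with 0 higher at an unadjusted p under 0.05. Of the other channel genes 14 of 34 fell and 6 rose (41.2% and 17.6%, against 21.8% and 28.9% of all genes). The calcium-activated chloride channel ANO1 stood at 45.8, 45.1 and 42.5 FPKM under vehicle and at 15.8, 16.3 and 14.7 FPKM after the siRNA (-1.45, SE 0.0549). KCNN4, a calcium-activated potassium channel, fell from 21.5, 21.6 and 20.02 FPKM to 8.72, 8.52 and 8.41 FPKM (-1.21), and the epithelial sodium channel subunit SCNN1A fell by 0.98. All 3 genes had their groups apart, which the rule for naming genes required. CLCA2 and CLCA4, secreted or membrane-bound regulators of chloride conductance, fell by 1.87 and 1.68. ATP1B1, the beta subunit of the sodium pump, fell from 64.2, 63.2 and 65.4 FPKM to 31.6, 30.3 and 31.4 FPKM (-1.02). ATP11A, a phospholipid flippase, rose by 1.22.

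Metabolic and signalling enzymes were tested for 482 of 628 listed genes, of which 131 rose and 193 fell (27.2% and 40.0%, median -0.07). Of all genes 28.9% rose and 21.8% fell. At 2-fold or more 32 enzyme genes were lower and 10 higher, and 30 of the 482 passed the filter in one group only. Oxidases, reductases and detoxifying enzymes rose in 23 of 82 cases, a share of 28.0% near that of all genes, and fell in 36 (43.9%). AKR1B10, an aldo-keto reductase, fell from 71.7, 73.1 and 75.2 FPKM to 14.8, 15.4 and 15.6 FPKM (-2.19, SE 0.0429), and the aldehyde dehydrogenase ALDH3A1 fell from 104, 116 and 109 FPKM to 34.4, 35.0 and 32.4 FPKM (-1.66). DUOX2, which makes hydrogen peroxide at the epithelial surface, fell by 3.09. CYP1B1, a cytochrome P450 induced through the aryl hydrocarbon receptor, rose from 5.45, 5.80 and 5.20 FPKM to 14.9, 13.5 and 14.4 FPKM (1.23), and CYP1A1 rose by 0.88. DHRS2, a mitochondrial reductase, rose by 1.49.

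Of eicosanoid and phospholipid enzymes 23 of 53 fell (43.4%, against 21.8% of all genes). The 15 that rose (28.3%) were near the 28.9% of all genes. PTGS2, the inducible cyclooxygenase, stood at 53.2, 53.4 and 54.0 FPKM under vehicle and at 23.1, 20.2 and 22.4 FPKM after the siRNA (-1.25), and PTGS1, the constitutive form, fell by 1.25 as well. HPGD, which inactivates prostaglandins, fell from 14.4, 14.1 and 15.1 FPKM to 2.66, 3.15 and 3.35 FPKM (-1.94). PTGES2, a prostaglandin E synthase, rose by 0.49. Enzymes of fatty acid and sterol synthesis fell in 25 of 46 cases and rose in 6 (54.3% and 13.0%). SCD, the stearoyl-CoA desaturase, fell from 326, 333 and 325 FPKM to 105, 99.7 and 101 FPKM (-1.68, SE 0.0396), whereas its relative SCD5 rose by 0.65 from a mean of 2.62 FPKM. FDFT1, squalene synthase, fell by 1.30 and the acetyl-CoA synthetase ACSS2 by 1.20, whereas the mitochondrial form ACSS1 rose by 0.76.

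Genes of polyamine metabolism moved in both directions. SRM, spermidine synthase, stood at 9.58, 8.57 and 10.2 FPKM under vehicle and at 35.4, 38.6 and 36.3 FPKM after the siRNA (1.85, SE 0.0713, adjusted p = 2.0e-05). ODC1, which makes the precursor putrescine, rose from 12.6, 11.9 and 12.2 FPKM to 30.8, 28.0 and 28.8 FPKM (1.19). SAT1, which acetylates polyamines for breakdown and export, fell from 82.9, 82.1 and 89.7 FPKM to 29.2, 26.4 and 28.9 FPKM (-1.56). Within the amino acid and polyamine class as a whole 21 of 40 rose and 12 fell (52.5% and 30%, against 28.9% and 21.8% of all genes). Argininosuccinate synthase (ASS1), which makes the precursor of arginine, fell from 62.3, 61.4 and 64.8 FPKM to 11.2, 12.5 and 11.1 FPKM (-2.34), the tryptophan-degrading enzyme IDO1 by 1.64, and the transglutaminase TGM2 by 1.71. Among the nucleotide enzymes 18 of 43 rose and 10 fell (41.9% and 23.3%), the falls near the share of all genes. CAD, which starts pyrimidine synthesis, rose by 1.01 and CTPS1, which makes CTP, by 1.00. The salvage enzyme NAMPT and the ectonucleotidase NT5E fell by 0.76 and 0.69.

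Glycosyltransferases and sugar enzymes fell in 32 of 80 cases and rose in 15 (40% and 18.8%, against 21.8% and 28.9% of all genes). B3GNT7, which extends keratan sulfate chains, fell from 6.09, 7.17 and 6.57 FPKM to 1.01, 1.16 and 0.789 FPKM (-1.94), and the fucosyltransferase FUT2 fell by 1.11. RPIA, an enzyme of the pentose phosphate pathway, rose by 0.86. Of 92 cytoplasmic kinases 40 fell and 18 rose (43.5% and 19.6%). SGK1, a kinase that regulates ion transport, fell from 11.3, 13.3 and 10.9 FPKM to 2.17, 2.09 and 1.96 FPKM (-2.06). The kinases of interleukin-1 and Toll-like receptor signalling split, with IRAK2 and IRAK3 lower by 1.41 and 1.11 and IRAK1 higher by 0.67, from 40.6, 40.5 and 39.0 FPKM to 62.7, 66.7 and 63.1 FPKM. RIPK3, a kinase of necroptosis, fell by 1.27, and TRIB3, a pseudokinase of the stress response, rose by 1.22. Receptor-type phosphatases PTPRZ1 and PTPRR rose by 1.33 and 1.19.

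**Figure D5:**
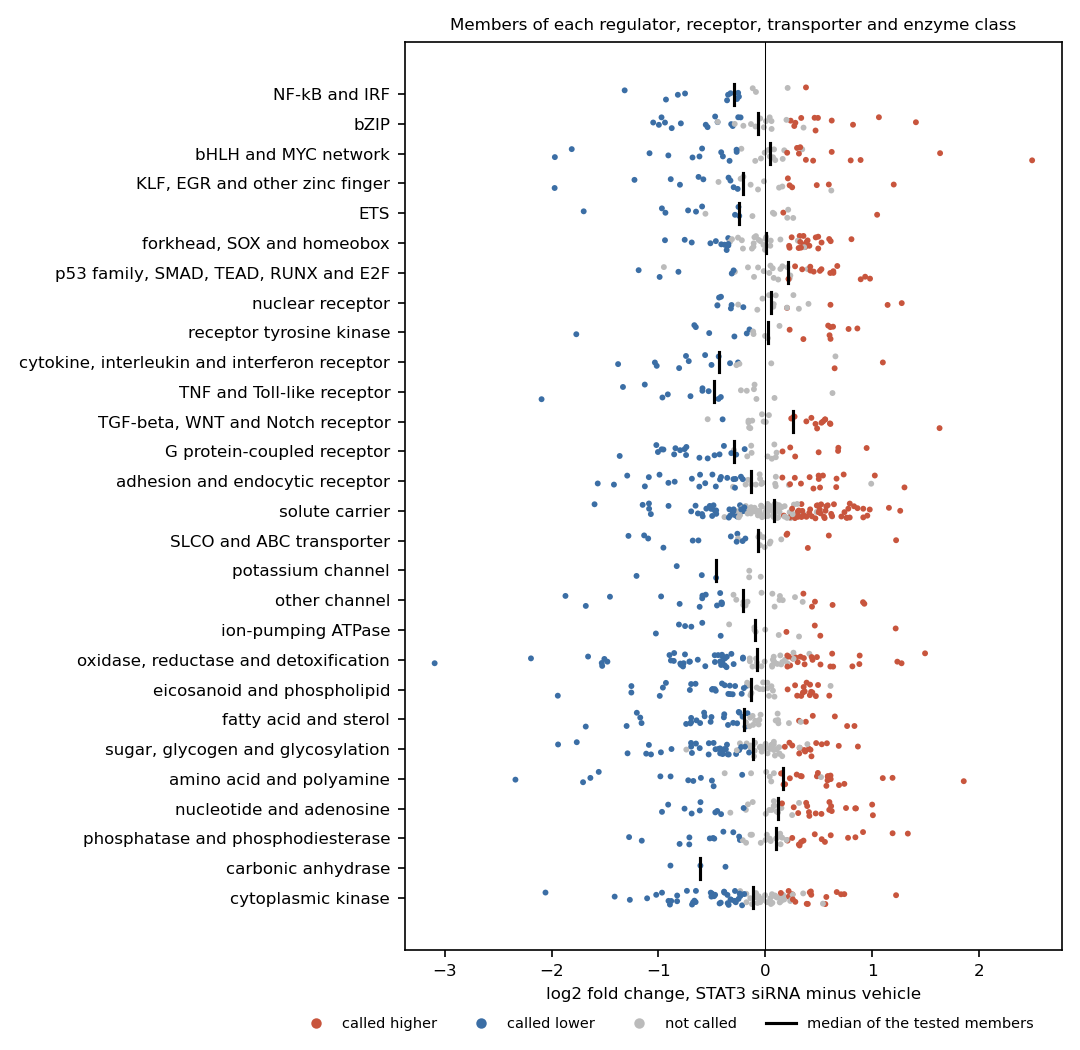
Log2 fold change, siRNA minus vehicle, of every tested member of 28 classes of transcription factors, receptors, transporters and enzymes. Red points were called higher, blue points lower and grey points not called, and the black bar is the class median; the receptors for TGF-beta, WNT and Notch signals have their median at 0.26 and the TNF and Toll-like receptors at -0.48.

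Genes of the interferon and double-stranded RNA response were examined because transfected siRNA can be sensed as foreign RNA. Of 35 tested of 39 listed, 14 rose and 6 fell (40.0% and 17.1%, median 0.06), against 28.9% and 21.8% of all genes. ISG15, a ubiquitin-like modifier, stood at 49.2, 45.7 and 46.8 FPKM under vehicle and at 114, 129 and 126 FPKM after the siRNA (1.36), and IFI6, USP18 and IFIT1 rose by 1.19, 1.12 and 0.91. TRIM22 and IFI35 of the same list fell by 0.91 and 0.68. The summed level of all 39 was 890 to 1056 FPKM under vehicle and 1032 to 1179 FPKM after the siRNA, ranges that overlap. IFITM3 made up 21.3% of that sum under vehicle. It went from 248, 182 and 204 FPKM to 162, 170 and 168 FPKM and was called lower (-0.33). The part of this response in the other results was not tested. Endothelial markers stayed below 1 FPKM each and summed to 0.874 to 1.17 FPKM under vehicle and 0.313 to 0.457 FPKM after the siRNA.

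Ductal epithelial markers divided, with 5 higher and 4 lower of 11 tested (45.5% and 36.4%, against 28.9% and 21.8% of all genes). Keratins 8 and 18 (KRT8, KRT18), the partner filaments of simple epithelium, rose by 0.93 and 0.48 and E-cadherin (CDH1) by 0.40, while KRT19, the most abundant, fell from 732, 685 and 714 FPKM to 505, 515 and 489 FPKM (-0.50). MUC1, CEACAM6 and S100P also fell, by 1.80, 0.63 and 0.42. Leaving out vehicle 1, the library with the highest estimated depth, gave 3101 genes higher and 2476 lower.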

How the data were processed

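Per the labels' protocols, RNA came from a Qiagen RNeasy kit and was made into Illumina libraries. The authors deposited 1 table of FPKM values with a column per library and human Ensembl identifiers. Bowtie 0.12.2 and the mouse build mm8 stand in the submitters' processing notes, so the build behind these human values is uncertain, while the FPKM program and the strandedness were not given in the sources used here. Gene types and exon overlap came from GENCODE 29, which held 96.5% of identifiers. Symbols turned into dates (27) were restored from identifiers. Depth was estimated on the assumption that single-transcript genes with few fragments take FPKM values in equal steps. At this estimate only 20.6% to 23.4% of low values came within 0.05 of a whole number of fragments. The depth estimates are therefore uncertain, and no count model was run.

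Log2(FPKM + 1) of the 6 libraries entered limma 3.58.1 under R 4.3.3 (moderated with a variance trend, 4 residual degrees of freedom, two-sided, no block), after a check on simulated data. Other settings were pseudocounts of 0.1 and 0.5, other filters, 3 scalings, all 9 libraries, other variance models, a replicate block and leaving out each library. The members and gene lists were chosen with earlier results of these data known. Named genes were STAT3, SOCS3, MMP1, IGFBP5, the called JAK-STAT3 genes, up to 4 per direction of each class and the 20 largest changes per direction, all called, with groups apart and a mean of 1 FPKM or more in the higher one; values of other genes are given where a statement turns on them. Some genes that this rule selects are not reported here. Promoter sequences are RefSeq's.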

Additional observations from a re-analysis of the deposited data

How the results depend on the processing

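No gene called in the fit as reported was called in the opposite direction under any other setting, and none of the named genes changed sign. Median-of-ratios scaling gave 3130 genes higher and 3069 lower, equal totals 4034 and 2324. At least 2-fold changes numbered 372 higher and 592 lower with a pseudocount of 0.1, and 252 higher with 0.5. A filter of 5 FPKM tested 6754 genes and so left 2220 higher and 1694 lower, with 227 at least 2-fold lower. Under that filter 7 cytokine and chemokine genes were lower, 4 growth factor genes higher, 7 matrix genes higher and 12 lower, and 0 mucosal defence genes higher and 23 lower. It also left 38 transcription factors, 20 receptors, 34 transporters and 81 enzymes higher, and 43 transporters lower. With no filter 18 growth factor genes and 2 mucosal defence genes were higher. Leaving out 1 library at a time gave 3037 to 3411 genes higher and 2335 to 2543 lower. A replicate block gave 3430 higher and 2590 lower and kept 477 of the 480 calls of at least 2-fold. Deviations of libraries with the same replicate number correlated at 0.03, 0.11 and 0.15, each the highest for its library. For vehicle 1 the lead was slight, at 0.027 with siRNA 1 against 0.023 with siRNA 2. Deviations within a group depend on each other, so this is at most a hint and no pairing by design. Of 363 called named genes, 19 were no longer called with no filter, 9 under the block and 9 to 19 when 1 library was left out. Depth is known only as an estimate, so no counting error is given for single values.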

Other observations

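The genes in this part were chosen after their values were seen, and no test of a list was run. Of 20 listed circadian clock genes 17 were tested, of which 10 rose and 3 fell (median log2 fold change 0.28). Of all tested genes 28.9% rose and 21.8% fell, and the falls of the clock genes were near that share. PER1, a core repressor of the clock, rose from 2.13 ± 0.0787 to 4.2 ± 0.423 FPKM (0.73, limma adjusted p = 0.00049), and CIART, a clock-associated repressor, rose by 0.72. ARNTL2, an activator of the same system, fell from 18.8 ± 0.568 to 11.4 ± 0.561 FPKM (-0.68), while PER3 and DBP were not called. Ferritin transcripts, which encode the iron store of the cell, were among the most abundant that rose. FTL stood at 1213 ± 90.7 FPKM under vehicle and 3282 ± 138 FPKM after the siRNA (1.44), and FTH1 at 210 ± 10.7 and 470 ± 70.1 FPKM (1.15), although 62.4% of the exon bases of FTH1 overlap another gene model and processed pseudogenes of both genes can share their fragments.

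Host genes of small nucleolar RNAs, which carry these RNAs in their introns, rose in 11 of 19 tested cases and fell in 0. Of all tested genes 28.9% rose and 21.8% fell. At an unadjusted p under 0.05 in limma 0 of these host genes were lower. GAS5 rose from 12 ± 0.700 to 41.2 ± 0.676 FPKM (1.70) and SNHG1 from 6.90 ± 1.20 to 18.9 ± 0.594 FPKM (1.34), while SNHG3 and SNHG8 were not called. Of 11 genes of the gasdermins, the inflammasome and the GIMAP family of immune GTPases, 10 fell, against 21.8% of all genes. AIM2, a sensor of cytosolic DNA, fell from 10.2 ± 0.845 to 3.08 ± 0.309 FPKM (-1.46), CASP1, the protease that matures interleukin-1 beta, from 17.0 ± 0.873 to 7.53 ± 0.107 FPKM (-1.07), and GIMAP4 from 4.06 ± 0.746 to 0.363 ± 0.0663 FPKM (-1.88). GIMAP4 passed the filter through the vehicle libraries alone. So did GIMAP6 and GIMAP8, which averaged 0.743 and 0.217 FPKM after the siRNA.

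Some large changes lay side by side on the chromosome. Of 6466 pairs of adjacent tested protein-coding genes, 24 had both members called at 2-fold or more, of which 22 fell together, 2 rose together and 0 moved apart. These pairs held 43 of the 412 protein-coding genes called at 2-fold or more, and no chance value was computed. Among those that fell were the oxidase genes DUOX2 and DUOX1 with their maturation factors DUOXA2 and DUOXA1, the serpins SERPINB13, SERPINB4 and SERPINB3, the complement proteases C1S and C1R, the connexins GJB2 and GJB6, the trefoil peptides TFF2 and TFF1, the caveolins CAV2 and CAV1, and IL1A with IL1B. The pairs that rose were PRSS1 with PRSS2 and SPINK4 with BAG1. Near-identical or overlapping neighbours can share fragments, and the part of this in the counts was not tested.

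Claudin-4 (CLDN4), a tight junction protein and ductal marker, was measured at 1.60, 23.6 and 0.504 FPKM under vehicle and at 27.4, 31.0 and 30.5 FPKM after the siRNA. It was not called (2.74, limma adjusted p = 0.057), and vehicle replicate 2 stood far above the other vehicle libraries. The second largest increase among the named genes, 4.64 for the readthrough gene BLOC1S5-TXNDC5, rested on 12.7, 0 and 0 FPKM under vehicle and 80.2, 29.5 and 84.9 FPKM after the siRNA, and all its exon bases overlap other gene models. PEG10, an imprinted gene of retrotransposon origin, rose from 10.3, 12.7 and 9.04 FPKM to 39.6, 40.4 and 38.8 FPKM (1.81).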
